A study of Homo sapiens with 27 samples.

Results

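Alternative splicing is steered by RNA-binding proteins that differ between cell types, and 5 of them are described here: CELF1, CELF2, CELF6, ESRP1 and ESRP2. They are 5 of the 27115 genes measured in 3 established diffuse large B-cell lymphoma (DLBCL) lines, Karpas422, OCI-Ly1 and HBL1. They were selected on their measured levels, with their differences between SIRT3 knockdown and control in these libraries known, so those differences are given as a description, with no p-value and nothing read from whether they were called. Each line carried shCTRL, a control shRNA, or shSIRT3-1 or shSIRT3-2, both directed against the mitochondrial deacetylase SIRT3, and RNA was taken at day 8. Every group had 3 libraries, which gave 27 libraries in 9 groups, and all cells, controls included, had received a lentiviral shRNA vector with puromycin selection. The study assigns Karpas422 to the OXPHOS, OCI-Ly1 to the GC B-cell like and HBL1 to the activated B-cell like type of DLBCL. Each type is therefore represented by 1 line, and a difference between lines cannot be told apart from a difference between types. The study describes its knockdowns as replicated, without saying whether the 3 libraries of a group came from separate cultures, so errors and p-values measure the spread between these libraries. Because the RNA came from whole cultures, fewer cells expressing a gene and less RNA per cell cannot be told apart.

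CELF proteins (CUGBP Elav-like family) bind GU-rich elements in introns and 3′ ends and act on splicing, translation and mRNA decay. CELF1 and CELF2 are widely expressed, whereas CELF6 and the other late-numbered members are best known from the nervous system. ESRP1 and ESRP2 (epithelial splicing regulatory proteins) maintain the epithelial splice forms of receptors and adhesion proteins such as FGFR2 and CD44, and are usually low outside epithelia. The values below are totals per gene and do not show which isoforms were made.

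The promoter of CELF6 is shown because CELF6 had the largest increase among the 5 genes. RefSeq promoter entries on GRCh38.p14 were found for 3 of the 5 genes, CELF1, CELF2 and CELF6. Of the 2 entries of CELF6, the one at the upstream start site covers chr15:72320158-72320407 on the minus strand and ends at the base before the start site. In the sequence, written 5′ to 3′ on the strand of the gene, capitals mark a cyclic AMP response element (CRE, TGACGTCA) and 2 GC boxes (GGGCGG, here read on the opposite strand as CCGCCC).

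CELF6 promoter: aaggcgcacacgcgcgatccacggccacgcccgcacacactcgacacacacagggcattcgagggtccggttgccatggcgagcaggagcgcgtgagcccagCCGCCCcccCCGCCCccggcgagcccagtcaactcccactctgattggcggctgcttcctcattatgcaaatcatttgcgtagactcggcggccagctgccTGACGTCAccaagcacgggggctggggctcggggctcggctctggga

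The CRE lies at chr15:72320197-72320204, between 47 and 40 bases before the start site. Both strands of the 250 bases before each start site were searched. A CRE was present in 1.64% of 34788 distinct promoter windows of this length and a GC box in 42.6%. The C/EBP-ATF response element (CARE, TGATGNAAN, in 3.14% of windows), the E-box (CACGTG, 6.31%) and the AP-1 element (TGANTCA, 6.59%) had no match in this window. The other CELF6 entry, at chr15:72306345-72306594, matched none of these 5 motifs. No CRE was found in the 5 entries of CELF1 or the 10 entries of CELF2. A match is a stretch of letters, and no binding was measured in these samples.

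Between 28694398 and 53405456 reads per library fell on genes (median 45669254). The deposited values are whole read numbers scaled by 1 factor per library without regard to gene length, and are called normalised values here. The reads behind a value were recovered from that factor. SIRT3 was lower in all 18 knockdown libraries than in every shCTRL library of its line. Its normalised value was 9.14 to 16.4 in shCTRL, 1.06 to 2.79 with shSIRT3-1 and 2.84 to 6.24 with shSIRT3-2, so that more SIRT3 RNA was left with shSIRT3-2. Of 10 B-cell markers, 9 or 10 had a mean normalised value of at least 1 in every group. CD22, an inhibitory B-cell receptor, was nevertheless lower with shSIRT3-2 over the lines (log2 difference -2.12, adjusted p = 0.000305, limma), and the phosphatase PTPRC with shSIRT3-1 (-0.96, adjusted p = 6.6e-06). The summed markers in Karpas422 were at 2136 to 3064 in controls and 1494 to 2007 with shSIRT3-2. In HBL1 they were at 2156 to 2646 and 1734 to 1845. OCI-Ly1 showed no such fall, at 2485 to 2726 in controls and 2564 to 2672 with shSIRT3-2. With shSIRT3-1 the sums overlapped those of the controls in every line. The part of the marker shifts in the values of the 5 genes was not tested. The OCI-Ly1 shCTRL replicate 2 library stood apart from the other OCI-Ly1 controls. It was the highest of these controls for all 20 genes on a list of ATF4 targets, which summed to 2921 there against 920 and 940 in the others. CHAC1, a glutathione-degrading enzyme induced by ATF4, was at 67.2 in it and at 1.99 and 2.23 in the others. Results that rest on this library are also given without it.

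**Figure D1:**
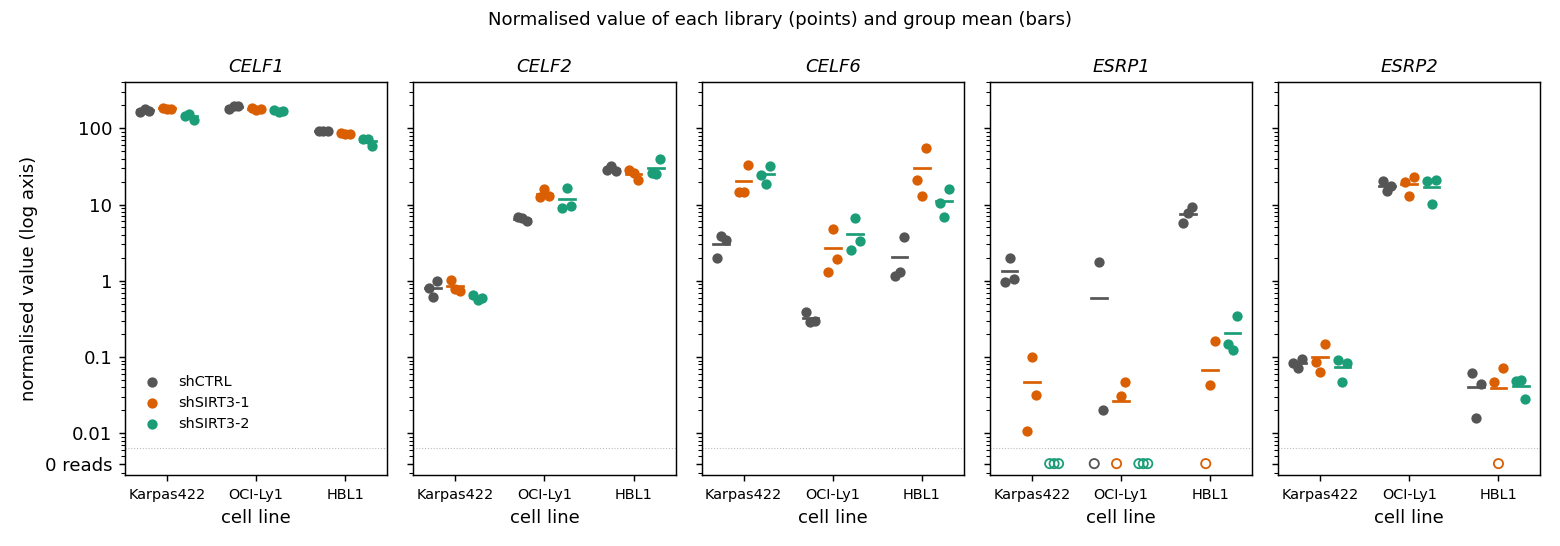
Normalised value (log axis) of CELF1, CELF2, CELF6, ESRP1 and ESRP2 in each of the 27 libraries by cell line and shRNA, with 3 points per group, a bar at the group mean and open circles for 0 reads. CELF6 points with either SIRT3 shRNA lie above all shCTRL points of the same line, and ESRP1 points in Karpas422 and HBL1 lie below them.

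CELF6 was higher in all 18 knockdown libraries than in every control library of the same line. It is encoded on the minus strand at chr15:72577068-72612498 (hg19, GENCODE) and no other measured gene overlaps it. In Karpas422 the normalised values were 1.98, 3.86 and 3.38 with shCTRL, 14.5, 14.4 and 32.7 with shSIRT3-1, and 24.1, 18.8 and 31.9 with shSIRT3-2. No knockdown library of this line was below 14.4, and no control was above 3.86. In OCI-Ly1, where CELF6 was lowest, the values were 0.393, 0.286 and 0.299 with shCTRL, 1.31, 4.83 and 1.96 with shSIRT3-1, and 2.51, 6.61 and 3.28 with shSIRT3-2. The OCI-Ly1 controls rested on 30 to 38 reads per library and the knockdown libraries on 144 to 675. In HBL1 the values were 1.16, 1.29 and 3.78 with shCTRL, 21.0, 12.8 and 55.4 with shSIRT3-1, and 10.4, 6.78 and 15.7 with shSIRT3-2. Replicate 3 was the highest library in each of the 3 HBL1 groups. The HBL1 controls thus spread more than 3-fold, yet the highest of them was below the lowest knockdown library.

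The ratio of mean normalised values, with no pseudocount, was 6.69 with shSIRT3-1 and 8.11 with shSIRT3-2 in Karpas422. OCI-Ly1 had ratios of 8.28 and 12.7, and HBL1 of 14.3 and 5.30. With shSIRT3-1 the ratio was 8.16 in HBL1 without the knockdown library of replicate 3 and 5.01 in OCI-Ly1 without that of replicate 2. Without the HBL1 control of replicate 3, the highest of its group, the HBL1 ratios were 24.3 and 8.98. On the log2(value + 0.1) scale, which understates changes of low genes, the difference over the lines was 2.96 ± 0.33 (SE, 9 against 9 libraries) with shSIRT3-1 and 2.89 ± 0.33 with shSIRT3-2. The increase was thus of similar size with both shRNAs when the lines were averaged. How the response differed between lines was not tested.

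ESRP1 went the other way, and no knockdown library held more than 37 reads of it. It lies on the plus strand at chr8:95653302-95719694 (hg19) with no overlapping measured gene. HBL1 had the most ESRP1, with normalised values of 5.73, 7.66 and 9.40 with shCTRL (564, 487 and 859 reads). In HBL1 it was at 0, 0.0436 and 0.162 with shSIRT3-1 (0, 5 and 18 reads) and at 0.146, 0.125 and 0.347 with shSIRT3-2 (15, 15 and 37 reads). The lowest HBL1 control therefore held 487 reads and the highest HBL1 knockdown library 37. In Karpas422 the controls were at 0.966, 2.01 and 1.06 (103, 199 and 114 reads). The Karpas422 libraries with shSIRT3-1 held 1, 11 and 3 reads and those with shSIRT3-2 held 0, 0 and 0. In OCI-Ly1 the controls were at 0, 1.74 and 0.0199 (0, 201 and 2 reads), so that ESRP1 was seen at more than a trace only in the library that stood apart. The OCI-Ly1 knockdown libraries held 0, 3 and 5 reads with shSIRT3-1 and 0, 0 and 0 with shSIRT3-2.

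The mean of the HBL1 controls was 111 times that with shSIRT3-1 and 36.8 times that with shSIRT3-2. In Karpas422 the control mean was 28.6 times that with shSIRT3-1. Single libraries with few reads moved these ratios. Leaving out each knockdown library in turn, which was added after the data were seen, gave 73.9 to 349 and 30.8 to 56.0 in HBL1 and 20.6 to 63.3 in Karpas422, the highest of them without replicate 3 in HBL1 and without replicate 2 in Karpas422. In Karpas422 with shSIRT3-2, where no read was found, ESRP1 was at least 151-fold lower, taking 3 reads over the 3 libraries as the upper limit of a count of 0. A limit of this kind covers counting error only, not the spread between libraries, and takes the control mean as measured. In OCI-Ly1 the corresponding figures were 22.4 (14.9 to 38.1 without single knockdown libraries) and at least 59.7. These 2 figures rested on replicate 2, since the other 2 controls held 2 reads together and no fold can be given from them. On the log2(value + 0.1) scale the difference over the lines was -3.35 ± 0.52 (SE) with shSIRT3-1 and -3.32 ± 0.52 with shSIRT3-2, or -3.16 and -3.13 without that library. In OCI-Ly1 alone the differences of -1.17 and -1.49 became 0.19 and -0.13 without it.

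**Figure D2:**
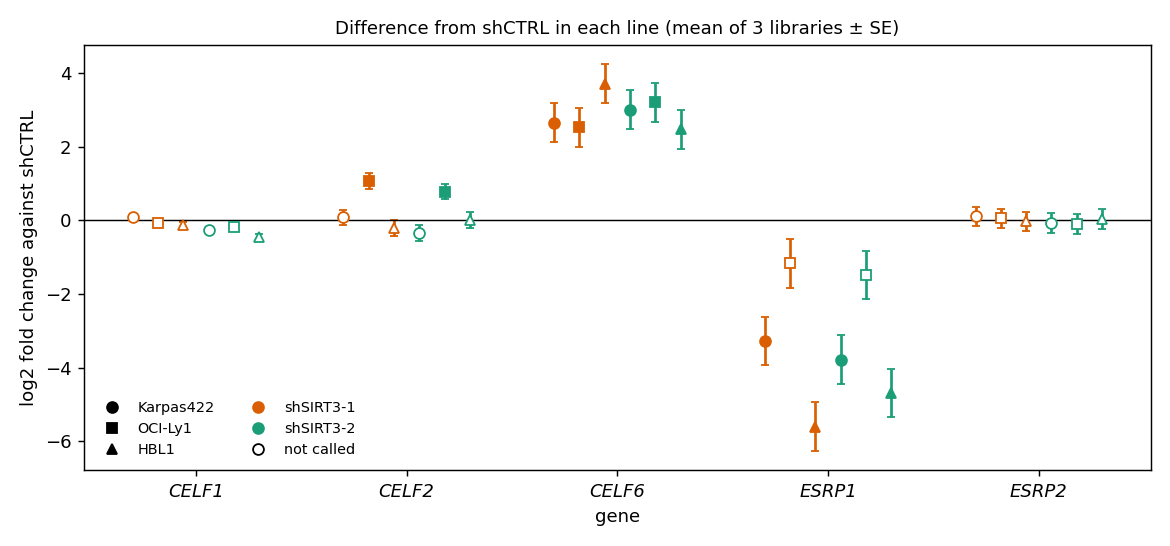
Log2 fold change against shCTRL (on log2(value + 0.1)) of each gene in Karpas422 (circles), OCI-Ly1 (squares) and HBL1 (triangles) with shSIRT3-1 and shSIRT3-2. Points are differences between means of 3 libraries ± SE, where the SE was estimated over all 27 libraries and is the same in every line. Open symbols did not pass the call rule. CELF6 lies between 2.47 and 3.71 in all 6 comparisons, ESRP1 between -5.60 and -1.17, and CELF2 departs upward only in OCI-Ly1.

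CELF2, known in lymphocytes for splicing changes in activated T cells, was higher in every knockdown library than in every control in OCI-Ly1, and in the other lines the groups overlapped. It spans chr10:10840360-11378674 on the plus strand (hg19), where 3 other measured genes overlap it. The antisense gene CELF2-AS1 had at most 29 reads in any library, and the reads of CELF2-AS2 and LINC00710 are not given here. In OCI-Ly1 the normalised values of CELF2 were 6.92, 6.63 and 6.08 with shCTRL, 12.4, 15.9 and 13.1 with shSIRT3-1, and 9.05, 16.4 and 9.59 with shSIRT3-2. All 6 OCI-Ly1 knockdown libraries were above all controls, with ratios of means of 2.11 and 1.78. The shSIRT3-2 value leaned on replicate 2, and the log2 difference was 0.51 without that replicate, which is under the fold of 1.5. In HBL1 the values were 28.0, 32.2 and 27.7 with shCTRL, 28.8, 26.3 and 21.2 with shSIRT3-1, and 25.7, 24.8 and 39.6 with shSIRT3-2, and the groups overlapped. In Karpas422 they were 0.816, 0.618 and 0.993 with shCTRL, 1.03, 0.789 and 0.743 with shSIRT3-1, and 0.650, 0.566 and 0.601 with shSIRT3-2. The Karpas422 values overlapped too and rested on 61 to 107 reads per library. The log2 differences in OCI-Ly1 were 1.06 ± 0.21 and 0.77 ± 0.21 (SE), and 1.07 and 0.78 without the OCI-Ly1 control that stood apart.

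CELF1, the founding member of the family and the most highly expressed of the 5 genes, moved little. It lies on the minus strand at chr11:47487485-47587121 (hg19) and overlaps NDUFS3 and PTPMT1, and whether reads were counted by strand is not given in the sources used here. In Karpas422 its normalised values were 164, 180 and 169 with shCTRL, 186, 180 and 180 with shSIRT3-1, and 146, 153 and 129 with shSIRT3-2. In OCI-Ly1 they were 180, 195 and 196, then 186, 176 and 181, then 173, 162 and 168 in the same order of shRNAs. In HBL1 they were 93.4, 93.1 and 92.1, then 86.6, 84.2 and 83.3, then 71.8, 73.0 and 58.8. With shSIRT3-2 all 9 libraries lay below every shCTRL library of their line, at a log2 difference over the lines of -0.30 ± 0.06 (SE). With shSIRT3-1 the difference was -0.04 ± 0.06, with Karpas422 libraries above the highest control and HBL1 libraries below the lowest.

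ESRP2, the paralogue of ESRP1, was confined to OCI-Ly1 at the filter used here. It lies on the minus strand at chr16:68262936-68272005 (hg19), and its 3′ end overlaps NFATC3 on the other strand. In OCI-Ly1 its normalised values were 20.6, 15.04 and 17.3 with shCTRL, 19.96, 12.99 and 23.0 with shSIRT3-1, and 20.3, 10.3 and 20.8 with shSIRT3-2. In each OCI-Ly1 group replicate 2 was the lowest library, and the 3 groups overlapped. Karpas422 libraries held 5 to 14 reads and HBL1 libraries 0 to 8 reads. The log2 difference from shCTRL over the lines was 0.04 ± 0.15 (SE) with shSIRT3-1 and -0.05 ± 0.15 with shSIRT3-2.

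Genes were called where the fold change exceeded 1.5 with an adjusted p under 0.05 (limma, Benjamini-Hochberg over 13076 genes with a normalised value of at least 1 in 3 or more libraries). All 5 genes passed this filter, CELF1 in 27 libraries, CELF6 in 24, CELF2 in 19, ESRP2 only through 9 OCI-Ly1 libraries and ESRP1 only through 6 control libraries. Against shCTRL over the lines, 2 of the 5 genes were called with shSIRT3-1, where 13.0% of all tested genes were called, and 2 with shSIRT3-2, where 13.5% were. With both shRNAs CELF6 was called higher, as were 1.10% of tested genes, and ESRP1 lower, as were 3.98%. This is a split of 144 genes higher and 521 lower, which became 273 and 387 under quantile normalization. Called in the same direction with both shRNAs within a line were CELF6 and ESRP1 in Karpas422 (background 5.83%), CELF2 and CELF6 in OCI-Ly1 (2.26%), and CELF6 and ESRP1 in HBL1 (11.2%). The OCI-Ly1 background of 296 genes was 169 without the control that stood apart and 471 with the replicate number as a block. Since the genes were selected on these contrasts, nothing is read from these counts. CELF1 and ESRP2 were called in none of them.

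The SIRT3 shRNAs were also set against each other, as shSIRT3-2 minus shSIRT3-1 on the log2 scale with the SE. No test is given, because the genes were selected on their values over all 3 shRNAs. CELF6 was lower with shSIRT3-2 in HBL1, by -1.24 ± 0.53 and in 3 of 3 same-numbered pairs, though no source says that the numbers pair libraries. In OCI-Ly1 it was the other way round, at 0.69 ± 0.53 and higher in 3 of 3 same-numbered pairs, and in Karpas422 the difference was 0.36 ± 0.53. The value over the lines, -0.07 ± 0.33, averages these opposite differences, and whether they differ between lines was not tested. CELF1 was lower with shSIRT3-2 in Karpas422 (-0.36 ± 0.081), in HBL1 (-0.33 ± 0.081) and in OCI-Ly1 (-0.11 ± 0.081), where every library with shSIRT3-2 was below every library with shSIRT3-1. CELF2 differed by -0.16 ± 0.17 over the lines. ESRP2, read in OCI-Ly1 where it was measurable, differed by -0.15 ± 0.26. The knockdown libraries held 0 to 37 reads of ESRP1, where the pseudocount sets the difference. By line it was 0.91 ± 0.66 in HBL1, -0.51 ± 0.66 in Karpas422 and -0.32 ± 0.66 in OCI-Ly1. The ESRP1 value over the lines, 0.03, averages differences of opposite sign, and it was -1.95 with DESeq2 on the recovered reads.

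The lines also differed before knockdown, and the order of the lines was not the same for all 5 genes. Per kilobase of annotated exon, where genes can be compared, CELF1 led in every line, with 18.0 ± 0.85 (SD, n = 3) in OCI-Ly1, 16.2 ± 0.75 in Karpas422 and 8.80 ± 0.067 in HBL1. CELF2 per kilobase was 2.66 ± 0.23 in HBL1, 0.593 ± 0.039 in OCI-Ly1 and 0.0733 ± 0.017 in Karpas422. CELF6 was 0.849 ± 0.27 in Karpas422, 0.574 ± 0.41 in HBL1 and 0.0901 ± 0.016 in OCI-Ly1. ESRP1 per kilobase was 1.56 ± 0.38 in HBL1 and 0.276 ± 0.12 in Karpas422, and in OCI-Ly1 it rested on 1 library. ESRP2 was 3.40 ± 0.54 in OCI-Ly1, 0.0159 ± 0.0021 in Karpas422 and 0.00774 ± 0.0044 in HBL1. The most abundant ESRP was thus ESRP2 in OCI-Ly1 and ESRP1 in Karpas422 and HBL1.

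**Figure D3:**
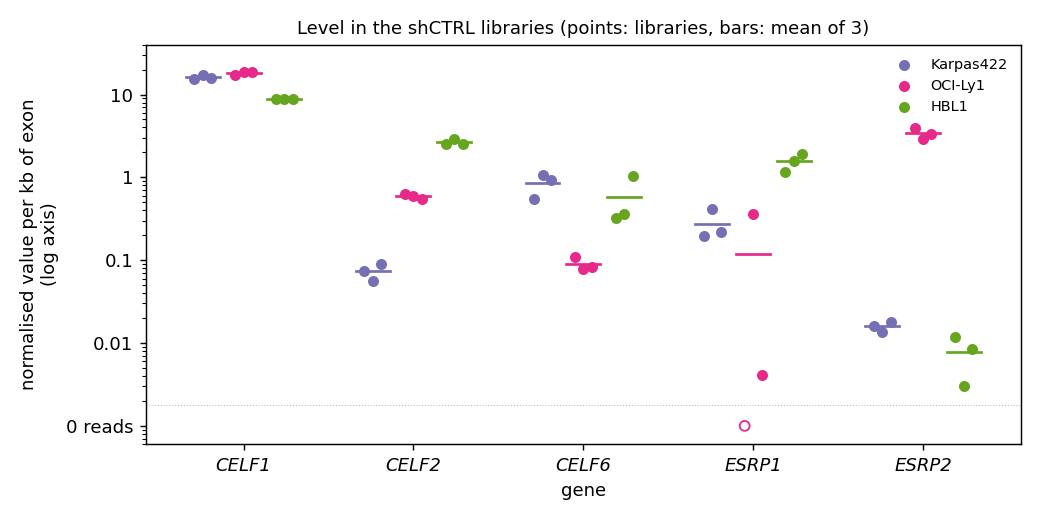
Normalised value per kilobase of GENCODE exon (log axis) of the 5 genes in the 9 shCTRL libraries, coloured by line, with a bar at the mean of 3 and an open circle for 0 reads. CELF1 is highest in each line, CELF2 falls from HBL1 to OCI-Ly1 to Karpas422, and ESRP2 is above 1 only in OCI-Ly1.

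On the log2(value + 0.1) scale without gene length, the differences between shCTRL libraries are given with their SE and no test, because the genes were chosen with their levels in all lines known. CELF1 was lower in HBL1 than in Karpas422 by a log2 difference of -0.88 ± 0.081 and than in OCI-Ly1 by -1.03 ± 0.081, and between Karpas422 and OCI-Ly1 the difference was -0.15 ± 0.081. CELF2 was higher in HBL1 than in Karpas422 by 5.03 ± 0.21 and than in OCI-Ly1 by 2.14 ± 0.21. CELF6 was higher in Karpas422 than in OCI-Ly1 by 2.85 ± 0.53 and in HBL1 than in OCI-Ly1 by 2.16 ± 0.53, whereas HBL1 and Karpas422 differed by -0.69 ± 0.53 and their libraries overlapped. ESRP1 was higher in HBL1 than in Karpas422 by 2.45 ± 0.66. The size of the ESRP1 difference from OCI-Ly1 depended on the OCI-Ly1 control that stood apart. It was 4.75 ± 0.66 for HBL1 and 2.30 ± 0.66 for Karpas422 with that library, and larger, at 6.11 and 3.65, without it. With edgeR on the recovered reads, Karpas422 and OCI-Ly1 differed by 1.11 in ESRP1. ESRP2 was lower than in OCI-Ly1 by -6.98 ± 0.26 in HBL1 and by -6.59 ± 0.26 in Karpas422, where it rested on few reads. Under the alternative settings these ESRP2 differences ranged from -8.70 to -4.15 and from -7.84 to -4.09. Those of CELF6 from OCI-Ly1 ranged from 1.59 to 3.24 for Karpas422 and from 1.11 to 2.68 for HBL1.

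Genes that mark epithelia were read beside the ESRPs. Of 16 such genes, 5 had a mean normalised value of at least 1 in OCI-Ly1 controls, among them the membrane protease ST14 at 223, its inhibitors SPINT2 at 106 and SPINT1 at 27.7, and the recycling GTPase RAB25 at 11.1. In the same libraries E-cadherin (CDH1) and the keratins KRT8 and KRT19 were at 0 reads. HBL1 controls had 4 such genes, with ST14 at 63.4, the adhesion protein EPCAM at 5.98 and SPINT2 at 5.82. Karpas422 controls had 1, SPINT1 at 1.01. The summed value of the 16 genes ranged from 360 to 379 in OCI-Ly1 controls, 242 to 329 with shSIRT3-1 and 183 to 290 with shSIRT3-2. In HBL1 it was 65.5 to 100.3, then 87.6 to 105, then 55.2 to 57.9, and in Karpas422 it stayed at or under 7.24. Over the lines, 9.09% of all tested genes were called lower with shSIRT3-1 and 10.2% with shSIRT3-2, and 3.92% and 3.29% were called higher. Under quantile normalization these shares became 7.41% and 7.16% lower and 6.16% and 5.32% higher. Of 6 epithelial genes tested, EPCAM, RAB25 and SPINT2 fell with shSIRT3-2 and none passed the call rule with shSIRT3-1. The part of these genes in the ESRP1 values was not tested.

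Among 10 neuronal genes, read beside CELF6, SNAP25, which drives synaptic vesicle fusion, had 0 reads in Karpas422 and HBL1 controls, and the neurofilament NEFL was at 0 reads in all control groups. TUBB3, a neuronal tubulin, stood at 204 in Karpas422 controls, 3.42 in OCI-Ly1 and 2.94 in HBL1. The vesicle protein SYP was at 4.35 in HBL1 controls and 1.37 in Karpas422. The summed value of the 10 genes in OCI-Ly1 was 4.54 to 5.37 in controls, 5.58 to 9.89 with shSIRT3-1 and 6.08 to 13.7 with shSIRT3-2, so that there the knockdown libraries lay above the controls, as for CELF6. In Karpas422 it was 161 to 249, then 159 to 220, then 318 to 386, and in HBL1 it was 6.34 to 9.30, then 5.25 to 8.02, then 4.38 to 10.3. Of 3 neuronal genes tested (SYP, MAP2 and TUBB3) none was called. The part of these genes in the CELF6 values was not tested. The neural CELF genes CELF3, CELF4 and CELF5 reached a normalised value of 1 in none of the 27 libraries, with control means between 0.0255 and 0.160.

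Other splicing regulators were read beside CELF6 and ESRP1. Sizes are not compared, because CELF6 and ESRP1 were selected on their differences. Of 28 tissue-specific splicing regulators, 18 were tested, 1 rose and 2 fell with shSIRT3-1, and 1 rose and 2 fell with shSIRT3-2. These counts stand beside the 9.09% and 10.2% of all tested genes called lower and the 3.92% and 3.29% called higher. The single gene called with both was MBNL2, a muscleblind protein that often opposes CELF1 at shared exons, which fell, at log2 differences of -0.78 and -0.89 (adjusted p = 0.0039 and 0.0014). Of 14 SR proteins, which promote exon inclusion, 13 were tested and none was called with either shRNA. Of 22 hnRNP proteins tested, which often repress exons, only HNRNPAB passed the call rule, higher by 0.60 with shSIRT3-2 (adjusted p = 0.0020). The list medians were -0.15 and 0.02 for tissue regulators, 0.00 and 0.09 for SR proteins, and 0.03 and 0.19 for hnRNP proteins, beside -0.05 and -0.03 for all tested genes.

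Transcripts that these proteins are known to splice or bind were also measured, by total level only. Of 12 known ESRP targets 10 were tested, with 1 that fell with shSIRT3-1 and 2 that rose with shSIRT3-2, and no gene was called with both. The medians were 0.17 and 0.29. Of 14 transcripts known to be bound or spliced by CELF proteins, 11 were tested, with 3 that fell with shSIRT3-1, 1 that rose and 1 that fell with shSIRT3-2. With lists this small, counts of 1 to 3 are read against the shares of all tested genes given above and nothing is called particular to a list. CDKN1A, which encodes the cell cycle inhibitor p21, fell with both, at log2 differences of -1.27 and -1.66 (adjusted p = 0.0089 and 0.0011). The medians of this list were -0.18 and -0.08.

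**Figure D4:**
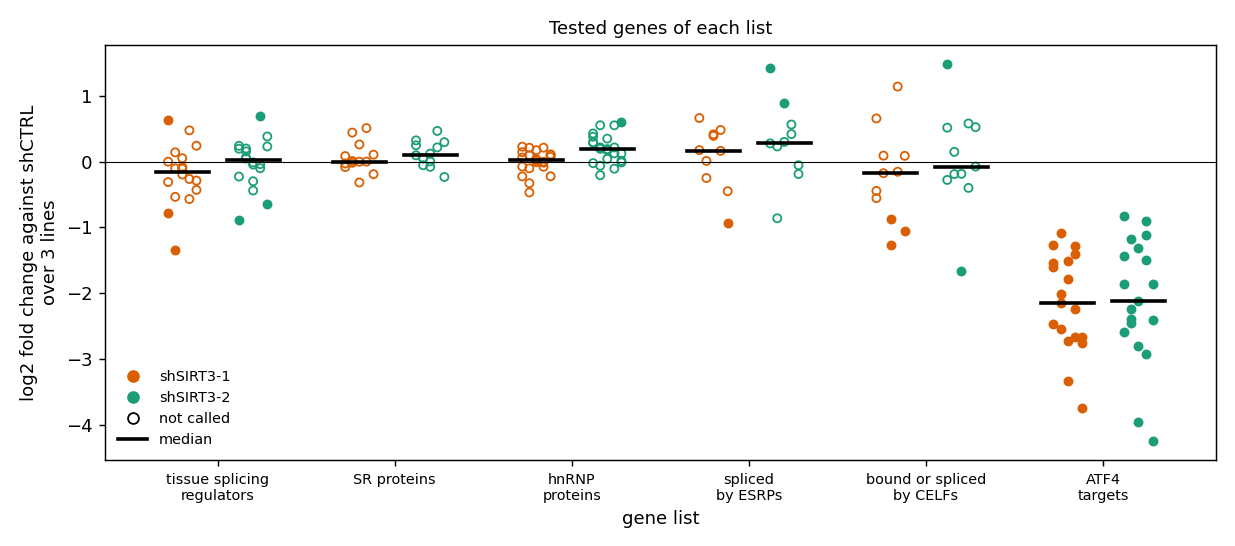
Log2 fold change against shCTRL over the 3 lines of every tested gene of 6 lists, with shSIRT3-1 and shSIRT3-2 side by side, open circles for genes not called and a bar at the list median. The medians of the 5 splicing lists lie between -0.18 and 0.29, and all ATF4 targets shown are below 0.

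By shape of response, the genes most like ESRP1 and CELF6 were sought among all tested genes as Pearson's r over the 27 libraries after subtracting the mean of each line. These r values are descriptions, since the libraries share the same 3 shRNAs. The 5 nearest to ESRP1 were MIA2, a factor of export from the endoplasmic reticulum (r = 0.97), the transcription elongation factor TCEA1 (0.96), the transporter SPNS3 (0.96), the pseudokinase TRIB3 (0.96) and the serine synthesis enzyme PSPH (0.96). Without the OCI-Ly1 control that stood apart they were between 0.95 and 0.97 over 26 libraries. That control was also the highest OCI-Ly1 control for each of them, for example TRIB3 at 141 against 21.8 and 23.8 and SPNS3 at 3.19 against 0.0414 and 0.0995. TRIB3 is on the list of 20 ATF4 targets. The 5 nearest to CELF6 were the lysosomal carboxypeptidase CTSA (r = 0.94), CECR6 (0.93), the WASH complex subunit WASHC2C (0.93), the Mediator subunit MED28 (0.92) and the exocyst subunit EXOC7 (0.91). The log2 differences of these 5 lay between 0.41 and 1.25. CELF6 and ESRP1 themselves ran opposite to each other at r = -0.75.

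The ATF4 list, whose theme the study drew from these same samples and which is therefore no independent evidence, gave 19 of 19 tested genes lower with both shRNAs, at medians of -2.15 and -2.11. The log2 differences were -3.74 and -4.25 for CHAC1, and -3.34 and -3.96 for INHBE, an activin subunit. In Karpas422 the list summed to between 3329 and 3560 in controls and between 761 and 1181 in knockdown libraries. In HBL1 it summed to between 2882 and 3001 in controls and between 350 and 799 in knockdown libraries. In OCI-Ly1 the 2 controls at 920 and 940 were close to the knockdown range of 522 to 886, and they were the controls with 0 and 2 reads of ESRP1. Within the HBL1 and Karpas422 controls the order of ESRP1 did not follow the order of the list. The part of ATF4 in the ESRP1 values was not tested.

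**Figure D5:**
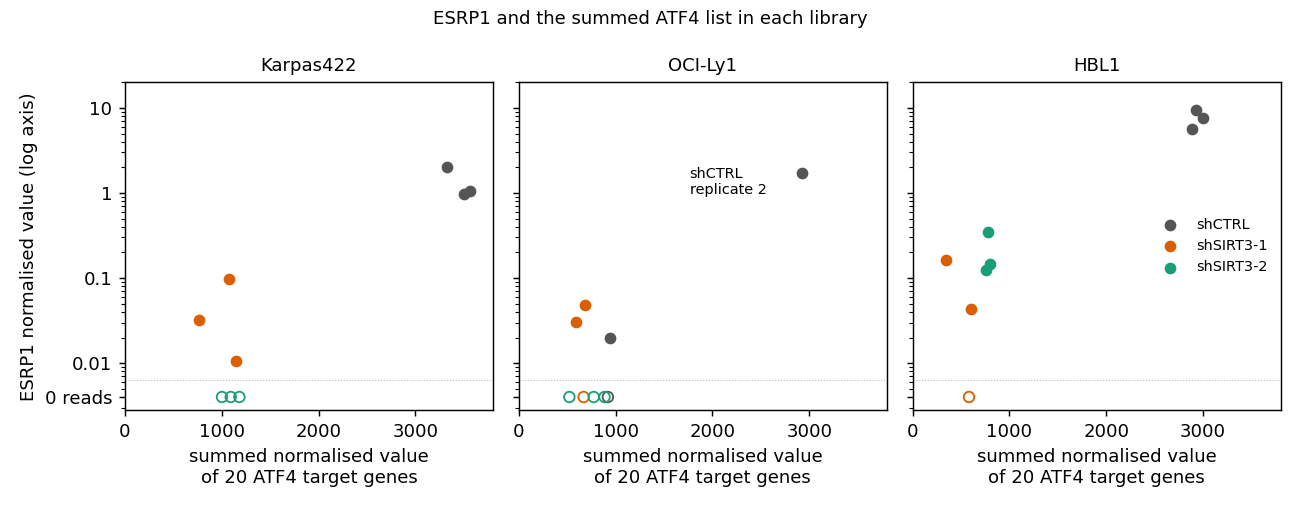
ESRP1 normalised value (log axis, open circles for 0 reads) against the summed normalised value of 20 ATF4 target genes in the 9 libraries of each line. The 7 libraries with ESRP1 at or above 0.966 are those with a list sum of at least 2882, including OCI-Ly1 shCTRL replicate 2 at 1.74 and 2921.

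The nearest tested gene on either side was read for each of the 5 genes. Around CELF6, PARP6, a mono-ADP-ribosyltransferase 11727 bases away, differed by -0.49 with shSIRT3-1 (adjusted p = 7.6e-05) and -0.29 with shSIRT3-2 (adjusted p = 0.0098) on the log2 scale, under the fold of 1.5. HEXA, the alpha subunit of a lysosomal hexosaminidase 20766 bases away, differed by 0.54 (adjusted p = 0.0043) and 0.52 (adjusted p = 0.0064), also under that fold. Beside ESRP1, the recombination factor RAD54B fell with shSIRT3-1 by 0.63 (adjusted p = 0.0079) and differed by -0.05 with shSIRT3-2, and DPY19L4 differed by 0.02 and 0.29 (adjusted p = 0.87 and 0.0051). NFATC3, which overlaps ESRP2, fell with shSIRT3-1 by 0.79 (adjusted p = 1.3e-06) and differed by 0.10 with shSIRT3-2 (adjusted p = 0.47). PLA2G15, on the other side of ESRP2, differed by 0.57 (adjusted p = 0.026, limma) and 0.41 (adjusted p = 0.11) and was not called. The neighbours of CELF1 (PSMC3 and PTPMT1) and of CELF2 (TAF3 and USP6NL) were not called with either shRNA, with differences between -0.23 and 0.41. None of the 10 neighbours was called with both shRNAs, where 1.10% of all tested genes were called higher and 3.98% lower.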

How the data were processed

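RNA-seq of 27 libraries was read from 1 table per library. Per the labels and the methods, the authors extracted total RNA, primed first strands with random oligos, sequenced paired ends, aligned reads to hg19 with STAR and counted RefSeq genes with Rsubread. The deposited values are named FPKM, but in each library every value is a whole multiple of 1 step for genes of any length (tolerance 0.01 reads, 0 exceptions), so they were treated as a signal that the authors scaled by 1 factor per library. The division that gave this factor includes a constant of 1766 for all genes, whose origin is not given in the sources used here. Recovery is less certain for replicate 3 of OCI-Ly1 shCTRL and replicate 1 of OCI-Ly1 shSIRT3-2, where this step is near 0.01. Tests had been planned for FPKM and were applied to these values unchanged.

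The 5 genes and all gene lists were chosen with earlier results of these data known. Log2(value + 0.1) was fitted with limma 3.58.1 in R 4.3.3 with a variance trend, by line and shRNA over all libraries and by 9 group means, for 13076 of 27115 genes. Beside the 5 genes, those named are SIRT3, the 2 largest rises and falls per list among genes called with both shRNAs, the 5 genes most like CELF6 and ESRP1, nearest tested neighbours, and, chosen after their values were seen, markers and genes called with 1 shRNA. The fit was also run on simulated reads with known changes and the same spread setting for all genes, and the outcome is not given here. Alternatives were pseudocounts of 1 and 0.01, no filter, quantile and median-ratio scaling, a replicate block, leaving out replicates or single libraries, the 9 shCTRL libraries alone, ratios of means with no pseudocount, and edgeR 4.0.16 and DESeq2 1.42.0 on recovered reads. Deviations from the group means of same-numbered libraries correlated above 0.1 in 9 of 9 pairs in HBL1 and 9 of 9 in OCI-Ly1, so the numbers were taken to pair the libraries of these lines, and in 8 of 9 in Karpas422 (lowest 0.014), where they were not. This pairing comes from the values, since no source says what the numbers mean, and the values do not settle it. The main fit had no term for the replicate number, so its SEs, adjusted p-values and calls take no account of this pairing. Only the alternative with a replicate block used the numbers as pairs, and it did so in Karpas422 too. Of 54 pairs with different numbers, 12 also correlated above 0.1, at up to 0.35. In HBL1, shCTRL replicate 2 correlated more with replicate 1 of the knockdown groups (0.28 and 0.30) than with their replicate 2 (0.27 and 0.22). Replicates differed by more than counting noise (chi-square per degree of freedom at least 6.74), so none was counted as a repeat of another. Coordinates are those of GENCODE 44 on hg19, and promoter sequence is from RefSeq on GRCh38.p14. ESRP1 and ESRP2 were not matched in the promoter table used here. Some items are not reported here.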

Additional observations from a re-analysis of the deposited data

Results flagged for a closer look

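CELF2 libraries lay on opposite sides of their control mean in different lines. With shSIRT3-1 all 3 OCI-Ly1 libraries were above their control mean and all 3 HBL1 libraries below it, a difference in log2 response of 1.27. With shSIRT3-2 all 3 Karpas422 libraries were below and all 3 OCI-Ly1 libraries above, a difference of -1.12 (Karpas422 minus OCI-Ly1). For CELF1 with shSIRT3-1, all Karpas422 libraries were above their control mean and all OCI-Ly1 and HBL1 libraries below theirs, by differences of 0.16 and 0.23. The CELF1 differences from shCTRL and those of CELF2 in HBL1 and Karpas422 did not pass the call rule, and none of these 4 differences between lines was tested.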

How the results depend on the processing

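Of 1093 values recomputed under an alternative, 1010 were counted as unchanged, 58 moved and 12 changed sign. Another 7 crossed to the called side and 6 to the other side, all in comparisons between the SIRT3 shRNAs or between lines. Unchanged meant the same direction and side of the threshold or, for differences from shCTRL, a size within the spread. Counts of called genes are among these values and were unchanged if within 1.5-fold of the main count. Differences from shCTRL were judged by size alone, so that a gained or lost call, or a change of sign in a difference that was not called, is not counted for them. CELF6 against shCTRL over the lines kept its direction under every alternative, between 2.29 and 3.30 with shSIRT3-1 and between 2.18 and 3.11 with shSIRT3-2. ESRP1 over the lines stayed lower under every alternative, but its size follows the pseudocount because knockdown libraries are near 0 reads. With shSIRT3-1 the log2 difference was -1.53 at a pseudocount of 1, -4.56 at 0.01, -5.54 with edgeR, -4.96 with DESeq2 and -5.37 as a ratio of means with no pseudocount. With shSIRT3-2 it was -1.50, -5.09, -5.77 and -6.91 in that order, and the ratio of means gave no value because of groups at 0.

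The 12 sign changes counted are those of differences between the SIRT3 shRNAs that were not called, and the cause was not tested. Over the lines ESRP1 was at -0.53 with a pseudocount of 0.01, -0.21 with quantile normalization, -0.22 with edgeR and -1.95 with DESeq2. ESRP2 was at 0.0037 with a pseudocount of 0.01 and 0.0502 with quantile normalization, and in Karpas422 at 0.15 with quantile normalization. Leaving out replicates gave ranges over the lines of -0.20 to 0.0899 for CELF6, -0.15 to 0.16 for ESRP1 and -0.15 to 0.0295 for ESRP2, and in HBL1 of -0.12 to 0.41 for CELF2 and -0.20 to 0.30 for ESRP2.

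Counts of called genes fell at a pseudocount of 1, to 1054 with shSIRT3-1, 1036 with shSIRT3-2, 383 with both and 862 between the SIRT3 shRNAs. Without single replicates the counts ranged from 985 to 1687 with shSIRT3-2 over the lines and from 320 to 681 with both. For both shRNAs within a line, HBL1 ranged from 821 to 1543, OCI-Ly1 from 11 to 373 and Karpas422 from 285 to 927. Between the SIRT3 shRNAs, OCI-Ly1 ranged from 145 to 912 and Karpas422 from 456 to 1464. The cause was not tested.

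With a replicate block 661 genes were called with both shRNAs over the lines, against 665 in the main fit, which had no such block. Within a line the counts were higher with the block. They were 471 against 296 in OCI-Ly1, 1603 against 1471 in HBL1 and 923 against 762 in Karpas422, where the numbers were not taken as pairs. The block gave no value for differences between lines. Depth limits ESRP1, with at most 37 reads in any knockdown library, and ESRP2 in Karpas422 (5 to 14 reads) and HBL1 (0 to 8 reads).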

Other observations

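Several splicing genes passed the call rule with 1 of the SIRT3 shRNAs, and they are named after their values were seen. MBNL3, a muscleblind protein, was lower by -1.35 on the log2 scale with shSIRT3-1 and differed by 0.05 with shSIRT3-2. PTBP2, the neural polypyrimidine tract-binding protein, rose by 0.63 with shSIRT3-1 and differed by -0.23 with shSIRT3-2. RBFOX2 rose by 0.70 and MBNL1 fell by 0.64 with shSIRT3-2, beside 0.47 and -0.29 with shSIRT3-1. Among known target transcripts, MEF2A, a CELF-regulated transcription factor, was lower by -1.06 with shSIRT3-1 and differed by -0.08 with shSIRT3-2, and ARHGEF11, an ESRP-regulated transcript, rose by 1.42 with shSIRT3-2, beside 0.66 with shSIRT3-1. MAPT was lower by -0.87 with shSIRT3-1 and differed by -0.19 with shSIRT3-2. ENAH rose by 0.89 and ACTN1 by 1.49 with shSIRT3-2, beside 0.41 and 0.65 with shSIRT3-1.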
